A study of Mus musculus with 2 samples.

Results

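The 36 genes described here are chemokine ligands and chemokine receptors of the mouse, chosen by name from the 34244 genes in the deposited gene lists. They comprise 19 ligands, 12 signalling receptors and 5 atypical receptors, and all 36 had at least 1 unique molecular identifier (UMI, 1 captured RNA molecule) in the cells analysed. Their raw UMI counts were followed over cell classes in single-cell RNA libraries from 2 mouse livers, 1 library from a mouse given PCB126 and 1 from a control mouse. PCB126 is a dioxin-like polychlorinated biphenyl and an agonist of the aryl hydrocarbon receptor (AHR), and the study asked how the non-parenchymal cells of the liver respond to it.

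Chemokines are small secreted proteins that draw leukocytes along gradients by acting on G-protein-coupled receptors. Atypical receptors bind the same ligands without the usual signal and remove, transport or present them, and endothelial cells are a main site of several of them. In the liver the sinusoidal endothelium, the bile duct epithelium and resident myeloid cells are known sources of chemokines, and the passing neutrophils, monocytes, dendritic cells and lymphocytes carry most of the signalling receptors.

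The PCB126 mouse was a C57/BL6 animal labelled as treated with 20 µg/kg/day, and the Control mouse was a C57/BL6 animal given peanut oil, although its treatment label reads "Untreated". The protocol speaks of 1 gavage while the dose is stated per day, exposure ran for 5 weeks on a shared synthetic diet, and both mice fasted for 12 hours before the liver was taken. Both are labelled with the age of postnatal day 21, without the time point it refers to. Hepatocytes were spun and strained out and red cells were lysed in both, so the libraries hold the remaining liver cells. With 1 mouse and 1 library in each group, mouse, preparation and treatment cannot be told apart, no test between the groups was made, and every interval below is an exact 95% interval that covers counting error only.

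After filtering, the PCB126 library held 1138 cells and the Control library 1858, with medians of 6567 and 5252.5 UMIs per cell. No cell barcode was shared between the libraries. Each cell was assigned to a class by its own score over markers of 21 cell types, none of which is one of the 36 genes, so a class is a range of a score and not a sorted population. Cells assigned to no class numbered 55 in the PCB126 library and 69 in the Control library, and the cells within 0.05 of a limit numbered 42 of 428 and 19 of 129 among liver sinusoidal endothelial (LSEC)-like cells. Endothelial cells were divided by the sinusoidal score minus the vascular score into LSEC-like cells (above 0.4), vascular endothelial-like cells (up to 0.2) and an intermediate group, with limits set after the data were seen. In that intermediate group 48 of 82 and 33 of 59 cells lay within 0.05 of a limit. The libraries were made of very different cells: neutrophil-like cells were 8.17% of PCB126 cells and 41.5% of Control cells, nonclassical monocyte-like cells were 0 of 1138 against 383 of 1858, and LSEC-like cells were 37.6% against 6.94%. Levels are therefore given as CPM, the UMIs of a gene per 1000000 UMIs of its class, never per liver. Transcripts of other cell types reached the classes unequally: the summed erythroid markers stood at 798 CPM in PCB126 LSEC-like cells and 3692 CPM in Control LSEC-like cells, and the summed neutrophil markers at 82.5 and 220.4 CPM. In neutrophil-like cells the erythroid markers summed to 489 and 4725 CPM. Subtracting the profile of the barcodes with fewer than 250 genes took an estimated share of at most 2.34% of the UMIs of a class. It moved none of the 61 log2 ratios of measured members by more than 0.0403. The number of members past 2-fold stayed the same in 7 of 7 classes. At such small shares the subtraction could move a ratio little, so it does not measure how much of a value came from other cell types. The mitochondrial share also differed in the same direction in each compared class: its median per cell was 13.1% in PCB126 and 8.14% in Control neutrophil-like cells, 11.1% and 7.18% in vascular endothelial-like cells, and 14.9% and 11.8% in LSEC-like cells. Over all cells it was 12.2% and 7.58%.

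In clusters made without the 36 genes, several classes fell into different clusters in the 2 libraries. Among LSEC-like cells, clusters 2 and 8 held 252 and 117 of 428 PCB126 cells and none of the 129 Control cells, of which cluster 5 held 103, beside 1 PCB126 cell. Of the vascular endothelial-like cells, 78 of 128 in PCB126 and 6 of 102 in Control lay in cluster 14, another 2 and 58 in cluster 15, and 28 and 30 in the mixed cluster 10. The largest cluster of PCB126 intermediate cells, cluster 9, took 44 of 82 of them and 0 of 59 Control ones. The PCB126 neutrophil-like cells lay mostly in cluster 17 (62 of 93, beside 12 of 771 Control cells), and the Control ones mostly in cluster 0 (7 PCB126 and 386 Control cells) and cluster 1 (19 and 250). All 85 and 66 cholangiocyte-like cells shared cluster 6, 58 of 60 and 35 of 35 cDC1-like cells shared cluster 11, and 54 of 54 and 21 of 22 B-like cells shared cluster 16.

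**Figure D1:**
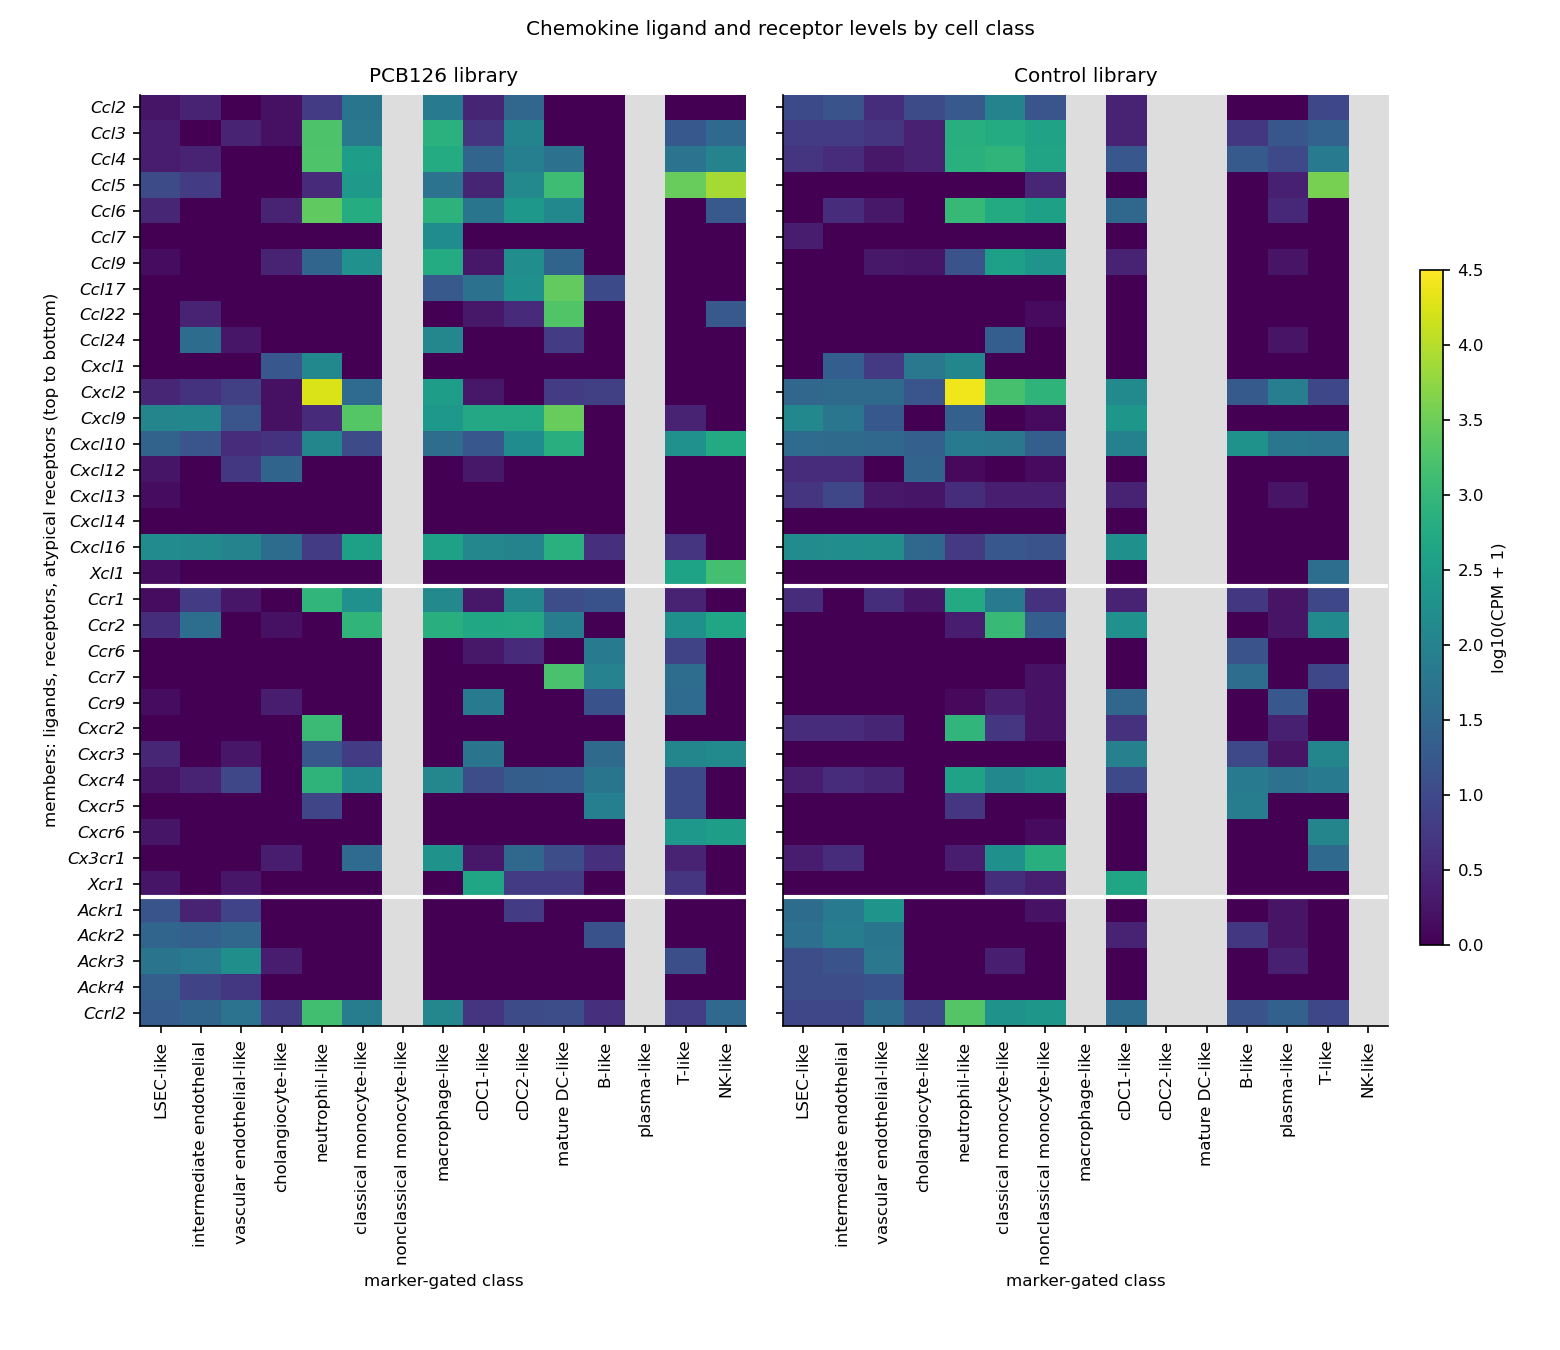
Level of each of the 36 genes as log10(CPM + 1) in every class with at least 10 cells, the PCB126 library on the left and the Control library on the right; grey columns had fewer than 10 cells in that library. Ligands stand above the first white line, signalling receptors between the lines and atypical receptors below. Cxcl2 in neutrophil-like cells is the highest level in both panels, and the atypical receptors Ackr1 to Ackr4 fill the 3 endothelial columns.

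The 5 classes named first below had at least 50 cells in each library and were compared, and the cDC1-like and B-like classes, with at least 20 cells in each, were added after the data were seen. A gene counted as measured in a class with at least 20 UMIs over both libraries, and as higher or lower when its CPM differed at least 2-fold. In LSEC-like cells 4 of 10 measured members were higher and 2 lower, where 7.46% and 4.00% of all measured genes were. Intermediate endothelial cells had 4 of 8 higher and 3 lower, against 6.09% and 5.60% of all genes. In vascular endothelial-like cells 1 of 8 was higher and 3 were lower, against 2.42% and 5.03%. Cholangiocyte-like cells had 0 of 5 higher and 2 lower, against 2.66% and 1.79%, and neutrophil-like cells 5 of 13 higher and 2 lower, against 9.84% and 8.90%. Among the added classes, cDC1-like cells had 4 of 12 higher and 3 lower against 7.63% and 3.83%, and B-like cells 2 of 5 higher and 1 lower against 9.17% and 11.1%.

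Those shares describe 2 libraries, and several calls rest on a single cell, as given with each gene. The median log2 ratio of the measured members was -0.79 in vascular endothelial-like, -0.72 in cholangiocyte-like, -0.08 in LSEC-like, 0.37 in intermediate endothelial and 0.69 in neutrophil-like cells, beside -0.09, 0.08, 0.05, -0.06 and 0.16 over all measured genes. It was 0.36 in cDC1-like and 0.19 in B-like cells, beside 0.08 and -0.0023. Setting members with a library at 0 to their bound left these medians unchanged to 2 decimals. In the neutrophil-like class the limits are uneven, because a member at 0 UMIs in the 93 PCB126 cells needs 47 UMIs in the 771 Control cells to count as lower. Of the 36 members, 29 were measured in at least 1 of the 7 classes and 22 passed 2-fold in at least 1, where 33.9% of the 11912 genes measured in at least 1 of the same classes did. Ccl7, Ccl22, Cxcl13, Cxcl14, Xcl1, Cxcr6 and Cx3cr1 were measured in none of them and are described by their leading class.

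**Figure D2:**
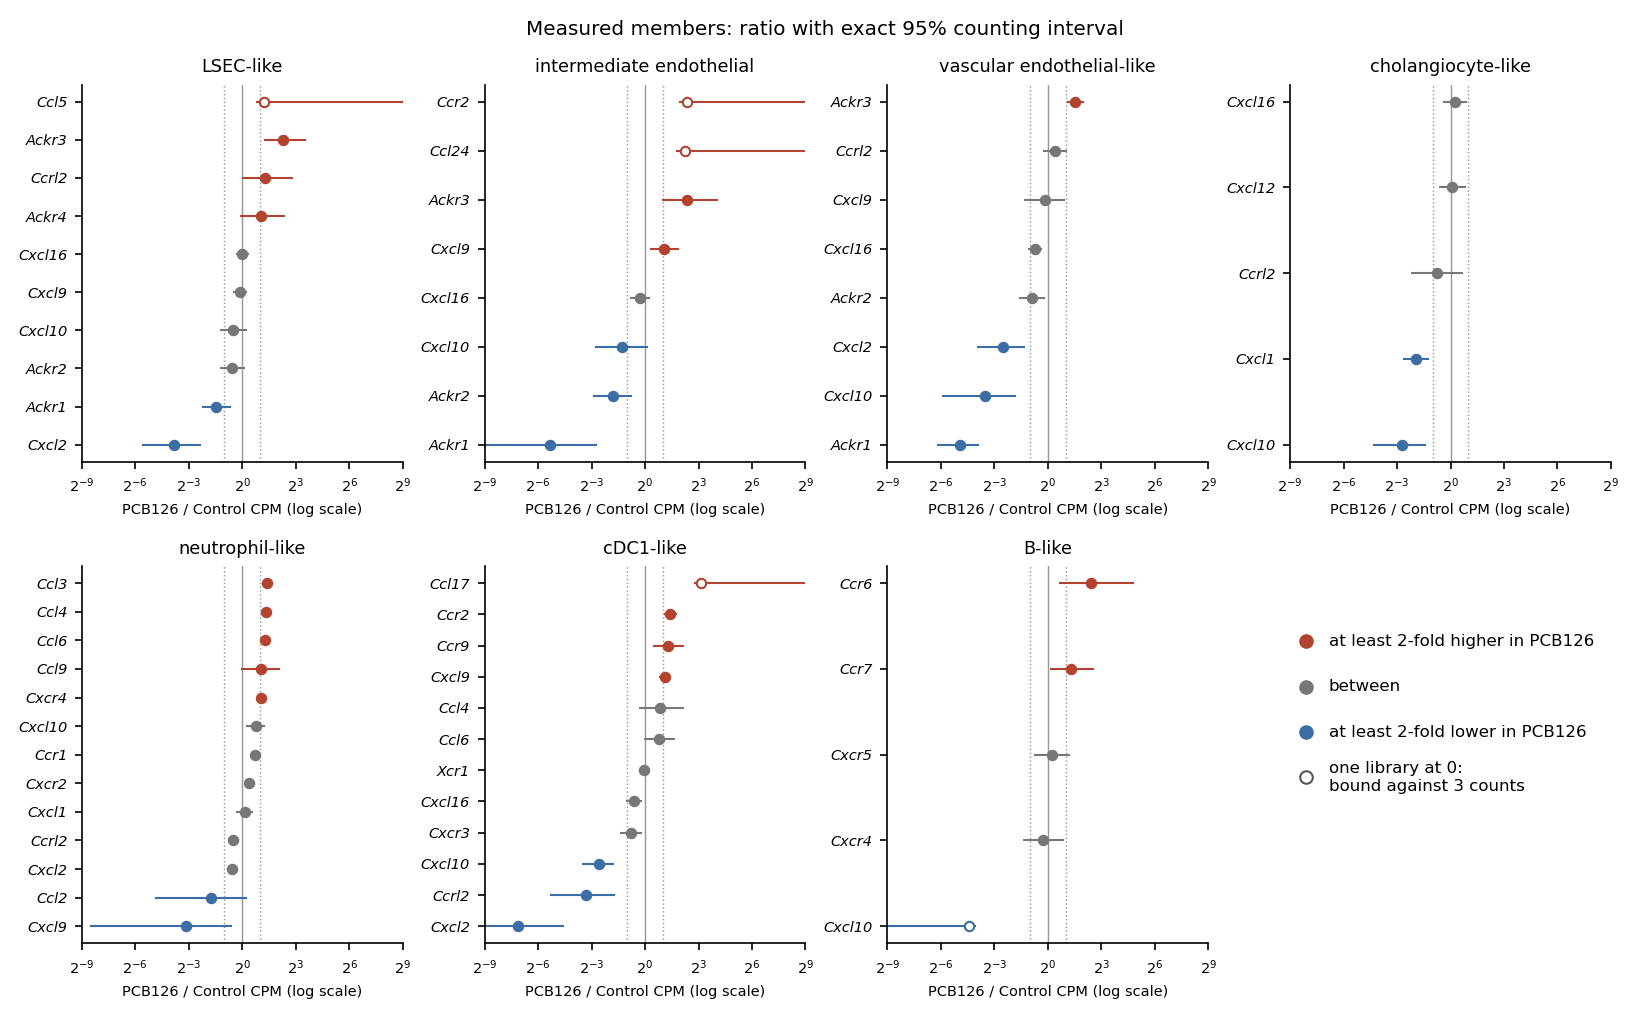
Ratio of CPM, PCB126 over Control, for every measured member in the 7 compared classes, on a log2 axis; bars are exact 95% conditional binomial intervals for counting error, dotted lines mark 2-fold, and open points are bounds against 3 counts. Ackr3 stands right of the 2-fold line in all 3 endothelial classes and Ackr1 stands left of it in all 3.

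Neutrophils are drawn by CXCR2 ligands and also make them, and in both libraries the neutrophil-like class led the CXCR2 ligand gene Cxcl2. Cxcl2 stood at 17400.1 CPM in 93 PCB126 cells and 25635.5 CPM in 771 Control cells, a ratio of 0.679 (0.662 to 0.696). The direction depended on the cells chosen: in cells with a UMI of the neutrophil marker Retnlg after thinning to 1000 UMIs, which were 78 of 93 and 659 of 765, the ratio was 0.564 (0.548 to 0.581), and in the 15 PCB126 and 106 Control cells without one it was 1.30 (1.24 to 1.36). Per cell it ranged over 0, 176 and 676 UMIs per 10000 (lowest, median, highest) in PCB126 cells and over 0, 243 and 1016 in Control cells, so the 2 distributions overlapped widely. After thinning, 84.9% of PCB126 cells (76.0 to 91.5) and 96.5% of Control cells (94.9 to 97.7) held a Cxcl2 UMI, and without thinning 87.1% and 97.8% did. In cholangiocyte-like cells, which are not a leading source, the thinned share was 0 of 85 and 3 of 66. Cxcl1, another CXCR2 ligand gene, was at 127 CPM in PCB126 and 116 CPM in Control neutrophil-like cells (ratio 1.10, 0.802 to 1.48), with 23 of its 50 PCB126 UMIs in 1 cell. All 50 lay in cells with a Retnlg UMI, where the ratio was 1.53 (1.11 to 2.08), while the cells without one held 0 UMIs in PCB126 and 94 UMIs in Control cells.

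Of the CC ligand genes measured in the neutrophil-like class, Ccl3, Ccl4, Ccl6 and Ccl9 were higher and Ccl2 was lower. Ccl6, whose product attracts myeloid cells through CCR1 in the mouse, had 985 UMIs and 2509.8 CPM in PCB126 cells and 3196 UMIs and 1044 CPM in Control cells, a ratio of 2.40 (2.23 to 2.58). Its UMIs were spread over the class, in 82 of 93 and 582 of 771 cells, with per-cell medians of 21.3 and 7.25 UMIs per 10000. Most of these PCB126 cells lay in cluster 17 and most of the Control cells in clusters 0 and 1, as given above. The thinned share with a Ccl6 UMI was 75.3% (65.2 to 83.6) and 50.8% (47.2 to 54.4), against 0 of 85 and 0 of 66 in cholangiocyte-like cells. Ccl6 stayed between 1.11 and 1.32 on the log2 scale under every alternative run.

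Ccl3 and Ccl4, which encode the inflammatory chemokines MIP-1α and MIP-1β, were instead held by few cells. Ccl3 stood at 1717 CPM in PCB126 and 650.0 CPM in Control neutrophil-like cells (ratio 2.64, 2.42 to 2.88). At least 50% of its 674 PCB126 UMIs lay in 5 of 93 cells. For its 1989 Control UMIs it was 43 of 771 cells, a similar fraction of the class. Ccl4 stood at 1796 CPM in PCB126 and 719.96 CPM in Control cells (ratio 2.50, 2.29 to 2.72), with 191 of 705 PCB126 UMIs in 1 cell, and in the Control library classical monocyte-like cells led it at 865 CPM. Their thinned shares differed less than their levels, at 32.3% (22.9 to 42.7) and 26.5% (23.4 to 29.8) for Ccl3 and 23.7% (15.5 to 33.6) and 13.9% (11.5 to 16.5) for Ccl4. Both ratios depended on the cells chosen: in cells with a Retnlg UMI, Ccl3 had a ratio of 1.16 (1.00 to 1.34) and Ccl4 of 1.12 (0.980 to 1.27). In cells without one, the ratios were 6.14 (5.40 to 6.98) and 10.5 (9.01 to 12.2).

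A further 3 ligand genes passed 2-fold in the neutrophil-like class on small or uneven sums. Ccl9, also a mouse CCR1 ligand gene, had 11 UMIs in PCB126 and 41 UMIs in Control cells (ratio 2.09, 0.970 to 4.14), and Ccl2, the monocyte attractant, had 2 and 52 UMIs (ratio 0.30, 0.0354 to 1.14). Cxcl9 had 1 UMI in PCB126 and 71 in Control cells, of which 69 lay in 1 Control cell. Cxcl10 had 45 and 209 UMIs there and lay within 2-fold at 1.68 (1.19 to 2.33), with 30 PCB126 UMIs in 1 cell. Its direction turned with the cells chosen, at 0.0920 (0.0110 to 0.337) in cells with a Retnlg UMI, from 2 and 173 UMIs, and 8.07 (5.06 to 12.9) in those without, from 43 and 36 UMIs.

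**Figure D3:**
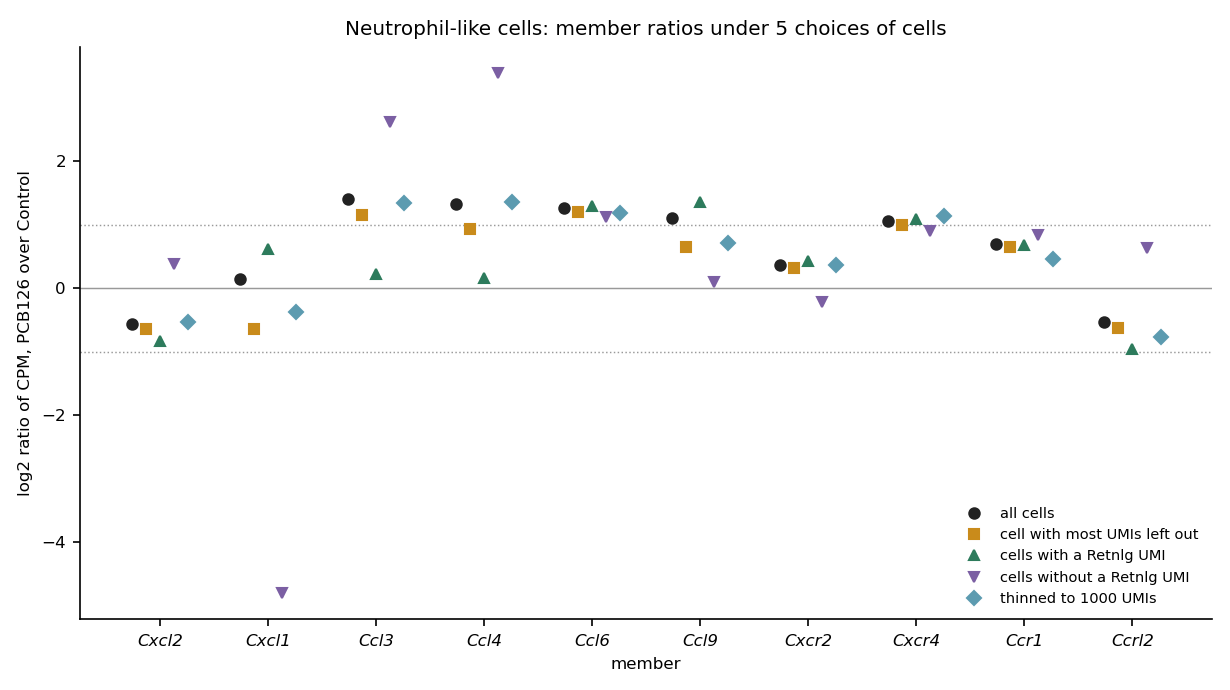
Log2 ratio of CPM, PCB126 over Control, of 10 members in neutrophil-like cells for all cells, without the cell of most UMIs in each library, for cells with and without a Retnlg UMI, and after thinning; dotted lines mark 2-fold. The 5 symbols of Ccl6 lie close together between 1.11 and 1.32, while those of Ccl3 and Ccl4 spread from 0.22 to 2.62 and from 0.16 to 3.39.

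Among the classes with at least 10 cells, bile duct cells had the highest Cxcl12 levels of both libraries. Stellate and mesenchymal-like cells, 1 in PCB126 and 4 in Control, were too few to be ranked. Bile duct cells also held the neutrophil attractant gene Cxcl1. In cholangiocyte-like cells Cxcl1 had 27 UMIs and 15.9 CPM in 85 PCB126 cells and 76 UMIs and 61.2 CPM in 66 Control cells, a ratio of 0.260 (0.161 to 0.409). It was found in 11 PCB126 and 19 Control cells, with at most 14 and 20 UMIs in 1 cell. Cxcl10, an interferon-induced CXCR3 ligand gene, had 6 UMIs in PCB126 and 29 UMIs in Control cells (3.54 and 23.4 CPM, ratio 0.152, 0.0515 to 0.372). Cxcl12 did not follow them: 47 and 32 UMIs gave 27.8 and 25.8 CPM (ratio 1.08, 0.673 to 1.74), and Cxcl16 lay at 38.4 and 32.2 CPM (ratio 1.19, 0.791 to 1.81). Ccrl2 had 9 and 11 UMIs there, within 2-fold at 0.60 (0.220 to 1.59). Thinned to 1000 UMIs, Cxcl1 and Cxcl10 were in 0 of 85 PCB126 cells each, which allows a share of up to 3.53%, and in 3 and 2 of 66 Control cells, so at that depth the difference was not detectable as a share.

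The windows before the starts of Cxcl1 and Cxcl10 are shown because these were the members lower in the cholangiocyte-like class. Each runs over the 250 bases before the gene start on the strand of the gene, from RefSeq for GRCm38.p6, with matches to the AHR core GCGTG, which reads CACGC on the other strand, and to the NF-κB consensus in capitals. The Cxcl1 window is chr5:90890995-90891244 on the plus strand and the Cxcl10 window chr5:92348890-92349139 on the minus strand.
Cxcl1: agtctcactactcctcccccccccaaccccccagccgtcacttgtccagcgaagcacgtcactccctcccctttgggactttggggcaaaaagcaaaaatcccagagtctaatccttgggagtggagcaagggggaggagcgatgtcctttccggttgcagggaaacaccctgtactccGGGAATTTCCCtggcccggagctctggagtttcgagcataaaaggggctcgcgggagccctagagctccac
Cxcl10: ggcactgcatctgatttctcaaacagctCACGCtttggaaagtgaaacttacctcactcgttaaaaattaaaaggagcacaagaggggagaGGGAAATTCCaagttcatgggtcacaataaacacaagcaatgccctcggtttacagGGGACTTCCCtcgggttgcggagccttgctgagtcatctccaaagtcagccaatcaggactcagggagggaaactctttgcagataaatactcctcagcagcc
In Cxcl1 the capitals are 2 overlapping NF-κB matches, 1 on each strand. Cxcl10 holds 2 NF-κB matches, the nearer one ending 94 bases before the start, and 1 AHR core on the other strand that begins 222 bases before it. Over 32851 RefSeq promoter windows of the same length, 3.90% held the NF-κB consensus and 28.2% the AHR core. Of the 28 members with a window, 7 held the NF-κB consensus (Ackr2, Ccl9, Ccr6, Ccrl2, Cxcl1, Cxcl10 and Cxcl2) and 11 the AHR core (Ackr3, Ccl17, Ccr1, Ccrl2, Cxcl10, Cxcl13, Cxcl14, Cxcl2, Cxcr3, Cxcr4 and Xcr1). Members were counted by gene, with a match in any window of the gene enough, while the shares count single windows. The 2 are therefore not in the same unit. A match describes the letters only. The other members, Ccl2, Ccl4, Ccl5, Ccl7, Ccl24, Cxcl16, Ccr7 and Cxcr5, were not searched.

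Endothelial cells held 48.8% of the UMIs of the CXCR6 ligand gene Cxcl16 in the PCB126 library and 53.9% in the Control library. In LSEC-like cells Cxcl16 had 356 UMIs in PCB126 and 110 UMIs in Control cells, 147 CPM in both (ratio 0.999, 0.805 to 1.25). It lay at 132 and 161 CPM in intermediate cells (ratio 0.815, 0.571 to 1.17) and at 104 and 169 CPM in vascular cells (ratio 0.615, 0.483 to 0.782), so the vascular interval alone excluded 1. Thinned shares in LSEC-like cells were 12.4% (9.46 to 16.0) and 9.38% (4.94 to 15.8), beside 1.08% and 0.392% in neutrophil-like cells, whose median depths were 3931 and 3563 UMIs against 5503.5 and 5637 in LSEC-like cells.

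The interferon-induced CXCR3 ligand genes Cxcl10 and Cxcl9 were both found in the endothelium, at levels that rested partly on single cells. Cxcl10 was below the Control level in all 3 classes, with 3 against 32 UMIs in vascular cells (2.67 and 30.4 CPM, ratio 0.0878, 0.0172 to 0.281), 8 against 13 UMIs in intermediate cells (ratio 0.412, 0.148 to 1.07) and 62 against 27 UMIs in LSEC-like cells (ratio 0.709, 0.444 to 1.16). The vascular value is the only one of the 3 whose interval excludes 1, and 18 of its 32 Control UMIs came from 1 cell. All 8 PCB126 UMIs of Cxcl10 in intermediate cells came from 1 cell. Cxcl9 was at 111 and 123 CPM in LSEC-like cells (ratio 0.903, 0.710 to 1.16) and at 14.2 and 16.1 CPM in vascular cells (ratio 0.881, 0.417 to 1.86). In LSEC-like cells 92 of its 269 PCB126 UMIs lay in 1 cell, and 79 of 428 PCB126 and 42 of 129 Control cells held one. By score, Cxcl9 was higher in PCB126 cells in 3 of 5 ranges and lower in 2. It stood at 154 and 109 CPM from 0.4 to 0.6, and at 53.6 and 149 CPM above 0.6. Its ratio of 2.07 (1.25 to 3.57) in intermediate cells came from 65 PCB126 UMIs, 54 of them in 1 cell, and without the leading cell of each library its log2 ratio was -1.26.

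The other calls in the endothelium concerned genes known mainly from leukocytes. Ccl24 with 21 UMIs and the monocyte receptor gene Ccr2 with 23 UMIs were each found in 1 PCB126 intermediate cell and in no Control cell, at least 4.69-fold and 5.13-fold higher against 3 counts in the class. That class also held 198 CPM of macrophage markers in PCB126 and 21.5 CPM in Control cells, with a median of 0 over cells in both. Ccl5 had 23 UMIs in 8 PCB126 LSEC-like cells, 13 of them in 1 cell, and 0 in Control cells, at least 2.37-fold higher. Cxcl2 was lower in LSEC-like cells with 5 against 22 UMIs (ratio 0.0702, 0.0208 to 0.190) and in vascular cells with 7 against 37 UMIs (ratio 0.177, 0.0666 to 0.403). The 22 Control LSEC-like UMIs lay in 22 cells and the 37 Control vascular UMIs in 20 cells, 17 of them in 1 cell. The Control levels of Cxcl2, 29.4 and 35.1 CPM, lie below the 154 CPM of the Control barcodes with fewer than 250 genes, where the PCB126 barcodes had 28.1 CPM. Subtracting that profile left the Cxcl2 log2 ratios at -3.76 in LSEC-like and -2.40 in vascular cells, against -3.73 and -2.42 before. The estimated shares in the Control cells were only 0.773% and 0.353%, so the subtraction could move these ratios little and decides nothing about their source. Neutrophil markers summed to 82.5 CPM in PCB126 and 220.4 CPM in Control LSEC-like cells, and their part in the Cxcl2 values was not tested.

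**Figure D4:**
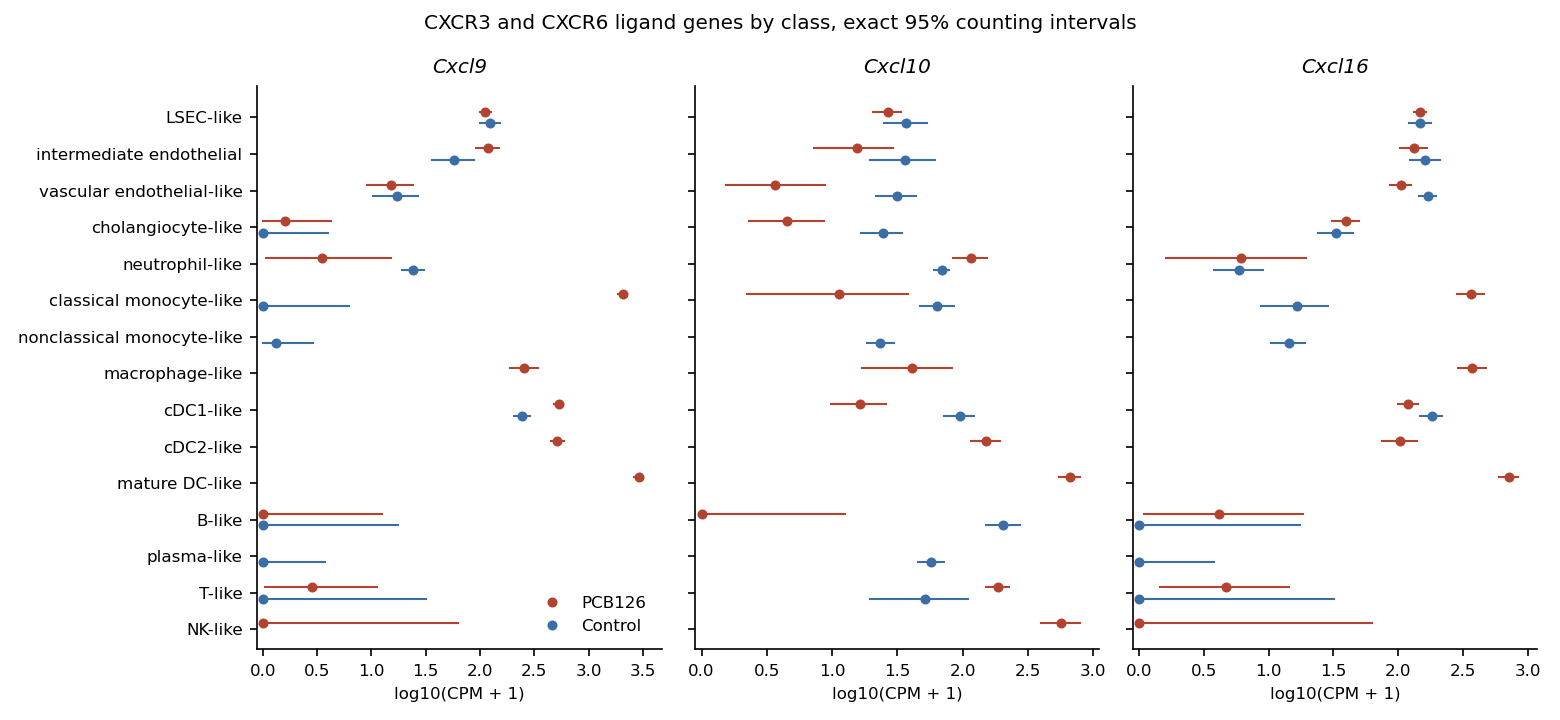
Levels of the CXCR3 ligand genes Cxcl9 and Cxcl10 and the CXCR6 ligand gene Cxcl16 by class as log10(CPM + 1), PCB126 above Control in each row, with exact 95% counting intervals; classes with fewer than 10 cells in a library have no point. Cxcl16 overlaps between the libraries in LSEC-like cells, and Cxcl10 lies lower in PCB126 vascular endothelial-like, cholangiocyte-like and cDC1-like cells.

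Dendritic cells and lymphocytes carried the remaining ligand genes. Mature DC-like cells were 15 in the PCB126 library and 1 in the Control library, so their values have no counterpart. They led Ccl17 (2673 CPM, 12 of 15 cells), Ccl22 (1877 CPM, 15 of 15 cells), Cxcl9 (2861 CPM, 9 of 15 cells), Cxcl10 (661 CPM, 4 of 15 cells) and Cxcl16 (715 CPM, 15 of 15 cells) in the PCB126 library. Ccl17 and Ccl22 encode ligands of CCR4, whose gene had 4 UMIs in all PCB126 cells and 0 in all Control cells. Over all cells, Ccl17 had 697 UMIs in the PCB126 library and 1 in the Control library, and Ccl22 had 376 and 7.

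In cDC1-like cells, 60 in the PCB126 library and 35 in the Control library, Ccl17 had 48 UMIs in 5 PCB126 cells and 0 in Control cells, at least 8.91-fold higher against 3 counts. The summed mature DC markers stood at 754 CPM in these PCB126 cells and 116 CPM in Control cells, and their part in the Ccl17 value was not tested. Cxcl9 stood at 525 and 241 CPM (ratio 2.18, 1.81 to 2.65), but 284 of 544 PCB126 UMIs and 125 of 139 Control UMIs lay in 1 cell each. Cxcl10 stood at 15.4 and 93.6 CPM (ratio 0.165, 0.0882 to 0.293) from 4 PCB126 and 2 Control cells. Cxcl2 was lower there with 1 against 77 UMIs, 74 of which lay in 1 Control cell, and the neutrophil markers summed to 8.69 CPM in PCB126 and 1279 CPM in Control cDC1-like cells. Cxcl16 was at 119 and 180.3 CPM (ratio 0.659, 0.503 to 0.864), Ccl6 at 54.1 and 31.2 CPM (ratio 1.73, 1.00 to 3.13) and Ccl4 at 28.0 and 15.6 CPM (ratio 1.79, 0.827 to 4.31).

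The T-cell chemokine gene Ccl5 and the XCR1 ligand gene Xcl1 were highest in the lymphocytes. Ccl5 stood at 7766 CPM in 10 PCB126 NK-like cells, and at 2839 CPM in 55 PCB126 and 3780 CPM in 12 Control T-like cells. It was also found in 14 of 15 PCB126 mature DC-like cells, with 234 UMIs and 1258 CPM. Xcl1 stood at 1426 CPM in PCB126 NK-like cells, found in 8 of 10, and at 403 CPM in PCB126 and 42.0 CPM in Control T-like cells, the last from 5 UMIs in 1 cell. Only 2 NK-like cells were found in the Control library, with 18 Xcl1 UMIs and 54 Ccl5 UMIs, and 30 Control Xcl1 UMIs lay in 3 cells assigned to no class. Cxcl10 was also present in PCB126 NK-like cells at 570.3 CPM, with 27 of 34 UMIs in 1 cell. In B-like cells Cxcl10 had 0 UMIs in 54 PCB126 cells and 46 UMIs in 1 of 22 Control cells, at least 21.8-fold lower, a call made by that cell.

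Monocyte-like and macrophage-like cells differed too much in number for a comparison. Macrophage-like cells, 18 and 5, rest on 4 of 10 detected markers. They led the CCR2 ligand gene Ccl7 in the PCB126 library with 27 UMIs (26 in 1 cell). The 5 Control cells, too few to be ranked, held 9 Ccl7 UMIs. Ccl9 stood at 577 CPM in PCB126 and 589 CPM in Control macrophage-like cells. Among the Control classes with at least 10 cells, Ccl9 was highest in classical monocyte-like cells, at 345 CPM. Ccl24, a CCR3 ligand gene, had 21 UMIs in PCB126 macrophage-like cells, 20 of them in 1 cell, and 15 UMIs in Control classical monocyte-like cells. Ccl2 stood at 73.6 CPM in PCB126 macrophage-like cells and at 104 CPM in Control classical monocyte-like cells. The 17 PCB126 classical monocyte-like cells held Cxcl9 at 2040.2 CPM, in 11 cells, with 208 of its 399 UMIs in 1 cell. They held Cxcl16 at 363 CPM, while the 58 Control cells held 0 Cxcl9 UMIs and 15.4 CPM of Cxcl16. The summed macrophage markers of that class were 828 CPM in PCB126 and 93.9 CPM in Control cells and its own markers 3953 and 10566 CPM, so the same name covers cells of different make-up. The 383 Control nonclassical monocyte-like cells, which have no PCB126 counterpart, held Cxcl2 at 856 CPM in 166 cells, Ccl4 at 421 CPM in 110 cells, Ccl3 at 389 CPM in 183 cells and Ccl6 at 362 CPM in 289 cells. The 58 Control classical monocyte-like cells held Cxcl2 at 1556 CPM in 33 cells, Ccl3 at 575 CPM in 36 cells and Ccl6 at 569 CPM in 54 cells. Control erythroid-like cells held Cxcl2 at 6916 CPM, in 36 of 77 cells, beside 25635.5 CPM in the neutrophil-like class. They also came second to the neutrophil-like class for Ccrl2 at 527 CPM, Cxcr2 at 180 CPM and Ccr1 at 158 CPM. The part of neutrophil transcripts in the erythroid-like values was not tested. In the classes outside the 7 compared, 26 members reached 20 UMIs, in 92 pairs of a member and a class.

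Cxcl13 and Cxcl14 were close to absent from the cells. Cxcl13, the CXCR5 ligand gene, had 1 UMI in PCB126 and 27 UMIs in Control cells. Its highest level among classes with at least 10 cells was 8.07 CPM in Control intermediate endothelial cells. Cxcl14 had 0 and 3 UMIs, the 3 from 1 Control macrophage-like cell.

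Among the signalling receptors, those of the neutrophil-like class had the largest sums. Cxcr2, the receptor of Cxcl1 and Cxcl2, stood at 1175 CPM in PCB126 and 914 CPM in Control cells (ratio 1.29, 1.16 to 1.42; 0.848, 0.560 to 1.24, in cells without a Retnlg UMI), and Ccr1, the receptor of Ccl3, Ccl6 and Ccl9 in the mouse, at 899 and 558 CPM (ratio 1.61, 1.43 to 1.81). Cxcr4, the CXCL12 receptor that holds neutrophils in the bone marrow and is known to increase as they age, stood at 828 and 397 CPM (ratio 2.08, 1.84 to 2.36). The thinned share with a Cxcr4 UMI was 51.6% (41.0 to 62.1) and 32.2% (28.9 to 35.6), and 0 of 85 and 0 of 66 cholangiocyte-like cells held one. Its log2 ratio lay between 0.90 and 1.26 under the alternatives. After thinning, 34 of 93 PCB126 cells and 135 of 765 Control cells held both a Cxcr2 and a Cxcr4 UMI. These ratios stand beside a median log2 ratio of 0.16 over all measured genes of the class, in which the neutrophil markers took a median of 65323 CPM per cell in PCB126 and 129201 CPM in Control cells.

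The monocyte receptor gene Ccr2 stood at 885 CPM in PCB126 and 1109 CPM in Control classical monocyte-like cells. In cDC1-like cells Ccr2 had 521 UMIs and 503 CPM in PCB126 and 108 UMIs and 187 CPM in Control cells (ratio 2.69, 2.18 to 3.34), found in 48 of 60 and 16 of 35 cells. Thinned to 1000 UMIs, 33.3% (21.7 to 46.7) and 14.3% (4.81 to 30.3) of cDC1-like cells held a Ccr2 UMI, intervals that overlap, against 0 of 93 and 0 of 765 neutrophil-like cells. Ccr9, the gut-homing receptor gene, followed at 71.4 and 29.5 CPM in cDC1-like cells (ratio 2.42, 1.42 to 4.38), found in 34 of 60 and 11 of 35 cells. After thinning, its share was 5.00% and 5.71%, and its log2 ratio turned to -0.29. Xcr1, the receptor that defines these cells and binds Xcl1, did not differ by more than its counting error, at 433 and 447 CPM (ratio 0.967, 0.828 to 1.13) in 54 of 60 and 35 of 35 cells. Cxcr3 lay at 52.1 and 90.1 CPM there (ratio 0.578, 0.388 to 0.863).

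In B-like cells the B-cell homing receptor genes lay in few UMIs. Ccr6 had 23 UMIs in 12 of 54 PCB126 cells and 3 UMIs in 3 of 22 Control cells (ratio 5.39, 1.63 to 28.0), and Ccr7, which guides cells to lymph nodes, had 31 and 9 UMIs (ratio 2.42, 1.12 to 5.78). Cxcr5, the CXCL13 receptor gene, stood at 87.4 and 75.5 CPM (ratio 1.16, 0.612 to 2.25) and Cxcr4 at 56.2 and 66.6 CPM (ratio 0.843, 0.401 to 1.80). With a mitochondrial limit of 10%, which leaves 10 PCB126 and 15 Control B-like cells, the log2 ratio of Ccr7 turned to -2.81. Ccr7 had its highest level in PCB126 mature DC-like cells, 1613 CPM in 13 of 15 cells, beside 1 UMI in the single Control cell.

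Among classes with at least 10 cells, NK-like cells led the receptor genes Cxcr3 and Cxcr6 in the PCB126 library. T-like cells led both in the Control library. Cxcr6, the CXCL16 receptor gene, was at 335 CPM in PCB126 NK-like cells and at 247 CPM in PCB126 and 109 CPM in Control T-like cells, found in 33 of 55 and 5 of 12 T-like cells. Cxcr3 was at 115 and 118 CPM in T-like cells, found in 24 of 55 and 7 of 12. In PCB126 NK-like cells it was at 134 CPM, from 8 UMIs. Cxcr3 also had 54 UMIs in PCB126 and 52 UMIs in Control cDC1-like cells, where Cxcr6 had 0 in both. Cx3cr1, the fractalkine receptor gene of patrolling monocytes, stood at 685 CPM in 383 Control nonclassical monocyte-like cells, found in 363 of them, a class without a PCB126 cell. In the PCB126 library Cx3cr1 led in macrophage-like cells at 204 CPM.

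Of the 5 atypical receptors, Ackr1, Ackr2, Ackr3 and Ackr4 were endothelial genes, with 95.5% to 100% of their PCB126 UMIs and 92.6% to 97.9% of their Control UMIs in endothelial cells. Ackr3, a scavenger of CXCL12, was higher in all 3 endothelial classes, and Ackr1, which venular endothelium uses to carry and display inflammatory chemokines, was lower in all 3, in classes whose PCB126 and Control cells lay mostly in different clusters. Over all endothelial cells, 638 and 290, Ackr3 had 356 UMIs in PCB126 and 75 UMIs in Control cells, and Ackr1 had 42 and 280. The windows before their starts are shown because these 2 genes differed in opposite directions in the same classes, the Ackr3 window at chr1:90203730-90203979 on the plus strand and the Ackr1 window at chr1:173333504-173333753 on the minus strand, with the same motifs in capitals.
Ackr3: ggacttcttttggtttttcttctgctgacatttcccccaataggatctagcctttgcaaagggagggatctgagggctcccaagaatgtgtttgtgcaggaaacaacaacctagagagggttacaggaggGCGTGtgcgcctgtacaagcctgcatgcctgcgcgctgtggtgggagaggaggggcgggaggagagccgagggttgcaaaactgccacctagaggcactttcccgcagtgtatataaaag
Ackr1: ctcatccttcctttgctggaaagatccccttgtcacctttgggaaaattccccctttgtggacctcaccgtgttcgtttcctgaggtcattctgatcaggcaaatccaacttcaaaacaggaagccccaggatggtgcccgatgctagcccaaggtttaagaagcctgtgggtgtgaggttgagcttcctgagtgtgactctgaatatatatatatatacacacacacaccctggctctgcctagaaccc
The Ackr3 window held 1 AHR core, 116 to 120 bases before the start, and no NF-κB match, and the Ackr1 window held neither.

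Ackr3 stood at 52.4 CPM in PCB126 and 10.7 CPM in Control LSEC-like cells, from 127 and 8 UMIs (ratio 4.90, 2.41 to 11.6). It stood at 68.5 and 13.5 CPM in intermediate cells, from 38 and 5 UMIs (ratio 5.09, 2.00 to 16.6), and at 169.9 and 58.9 CPM in vascular cells, from 191 and 62 UMIs (ratio 2.88, 2.16 to 3.91). No single cell made these values, since the most UMIs in 1 cell were 5, 5 and 10 in PCB126 and 1, 2 and 15 in Control cells. An Ackr3 UMI was found in 19.2% and 24.4% of PCB126 LSEC-like and intermediate cells and 64 of 128 PCB126 vascular cells, and in 6.20%, 6.78% and 23.5% of the Control cells of the same classes. After thinning, the shares were 6.1% (4.03 to 8.82) of PCB126 and 0 of 128 Control LSEC-like cells, which allows up to 2.34%, and 9.38% (4.94 to 15.8) and 5.88% (2.19 to 12.4) of vascular cells, whose intervals overlap. Neutrophil-like cells held 0 Ackr3 UMIs in 93 PCB126 and 771 Control cells. Along the score that divides the endothelium, Ackr3 was lower toward the sinusoidal end in both libraries and was higher in PCB126 cells in 5 of 5 ranges, with intervals that did not overlap in any: 198 and 71.9 CPM at scores up to 0, 132 and 42.6 CPM from 0 to 0.2, 68.5 and 13.5 CPM from 0.2 to 0.4, 60.2 and 12.3 CPM from 0.4 to 0.6 and 42.1 and 7.66 CPM above 0.6. In the vascular class thinning brought the log2 ratio to 0.52, against 1.52 for all UMIs. With classes from clusters the intermediate class kept 2 Control cells and its log2 ratio was -0.31.

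Ackr1 stood at 7.11 CPM in PCB126 and 214 CPM in Control vascular endothelial-like cells, from 8 UMIs in 7 of 128 cells and 225 UMIs in 57 of 102 cells (ratio 0.0333, 0.0142 to 0.0667). It stood at 1.80 and 72.7 CPM in intermediate cells, from 1 and 27 UMIs (ratio 0.0248, 0.000606 to 0.15), and at 13.6 and 37.4 CPM in LSEC-like cells, from 33 and 28 UMIs (ratio 0.364, 0.213 to 0.625). The thinned share in vascular cells was 0.781% (0.0198 to 4.28) of PCB126 and 16.7% (10.0 to 25.3) of Control cells, with medians of 8682 and 9596.5 UMIs per cell before thinning, and no Ackr1 UMI occurred in 93 PCB126 and 771 Control neutrophil-like cells. In the Control library the level was highest at the vascular end, 248 CPM at scores up to 0, where the PCB126 library had 6.24 CPM. The PCB126 level was lower in 5 of 5 score ranges, and the intervals overlapped only from 0.4 to 0.6, at 12.3 CPM in PCB126 and 24.6 CPM in Control cells. The log2 ratio in vascular cells lay between -5.27 and -4.30 under the alternatives. The summed vascular markers were 6743 CPM in PCB126 and 7675 CPM in Control cells of that class. Fewer cells that express Ackr1 and less Ackr1 RNA per cell cannot be told apart across the 2 preparations.

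**Figure D5:**
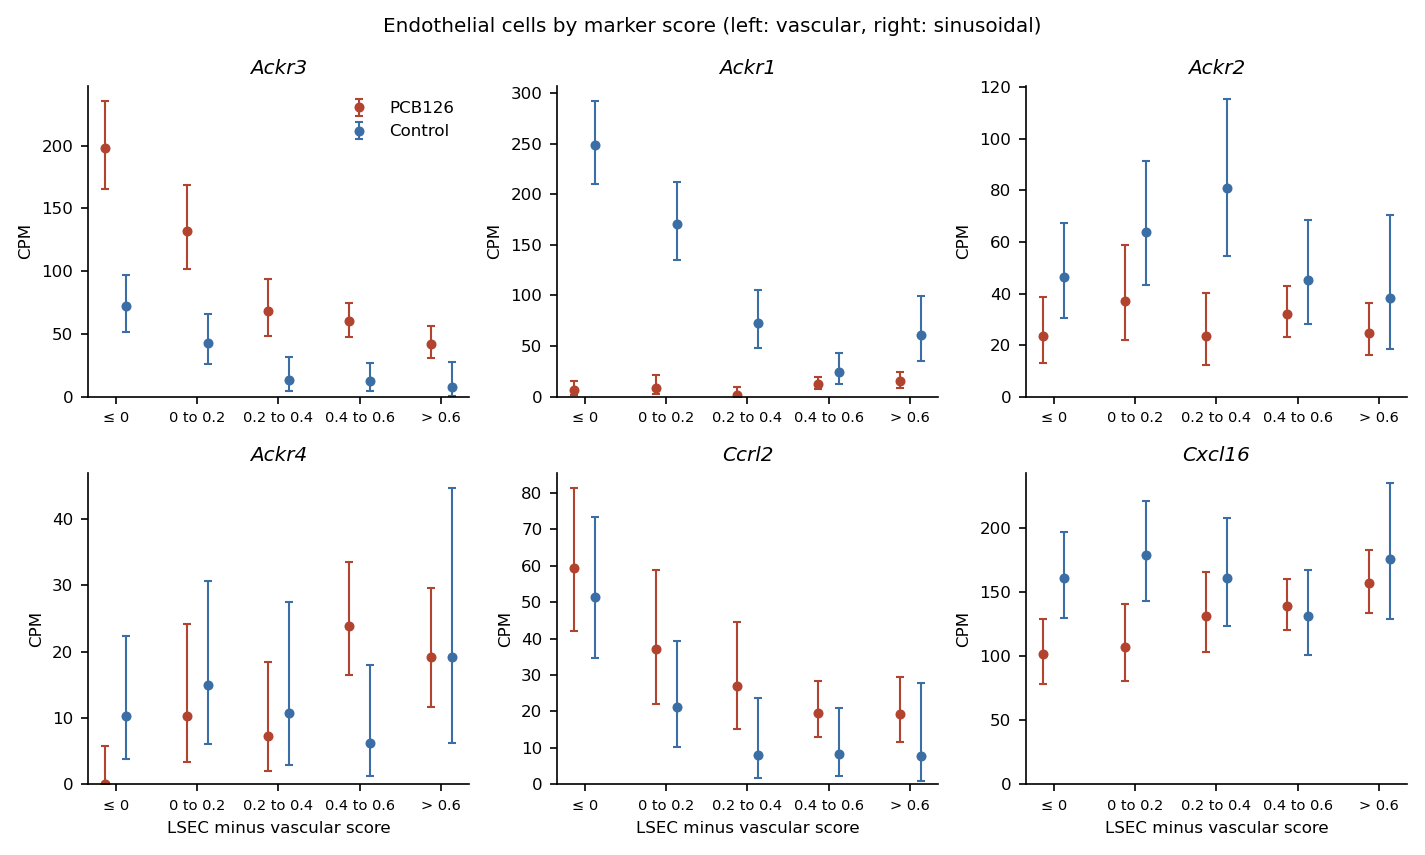
CPM of the atypical receptor genes and of Cxcl16 in endothelial cells along the sinusoidal minus vascular score in 5 ranges, PCB126 left of Control in each range, with exact 95% Poisson intervals; the ranges hold 70, 58, 82, 247 and 181 PCB126 cells and 55, 47, 59, 84 and 45 Control cells. Ackr3 is higher in PCB126 cells in every range shown and Ackr1 lower, while the Ackr4 and Ccrl2 intervals overlap throughout.

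The other atypical receptors differed less. Ackr2, a scavenger of inflammatory CC chemokines, was lower in PCB126 cells in 5 of 5 score ranges but with overlapping intervals in 4 of them. It had 13 and 30 UMIs in intermediate cells (ratio 0.290, 0.139 to 0.573), 33 and 57 in vascular cells (ratio 0.542, 0.342 to 0.847) and 70 and 32 in LSEC-like cells (ratio 0.675, 0.439 to 1.06). Ackr4, which removes CCL19, CCL21 and CCL25, had 53 and 8 UMIs in LSEC-like cells (21.9 and 10.7 CPM, ratio 2.05, 0.966 to 4.98), and over all endothelial cells 62 and 25 UMIs (ratio 1.31, 0.813 to 2.18). In vascular cells it had 5 and 13 UMIs (ratio 0.360, 0.101 to 1.08). Ackr4 was higher in PCB126 cells in 1 of 5 score ranges, from 0.4 to 0.6 at 23.9 and 6.15 CPM. It was lower in 4, among them above 0.6 at 19.1 and 19.2 CPM, and the intervals overlapped in every range. Ccrl2, which binds chemerin, had 47 and 6 UMIs in LSEC-like cells (19.4 and 8.01 CPM, ratio 2.42, 1.03 to 6.92) and 56 and 40 in vascular cells (ratio 1.31, 0.858 to 2.02). Its highest level was in neutrophil-like cells, 1371 CPM in PCB126 and 1987 CPM in Control cells (ratio 0.690, 0.630 to 0.753), with thinned shares of 44.1% (33.8 to 54.8) and 65.9% (62.4 to 69.2). In neutrophil-like cells with a Retnlg UMI the Ccrl2 ratio was 0.512 (0.457 to 0.572), and in those without 1.55 (1.33 to 1.81). In cDC1-like cells Ccrl2 had 4 and 22 UMIs (ratio 0.101, 0.0254 to 0.298), all 22 from 1 Control cell.

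Set side by side, the matched genes place senders and receivers as follows, among classes with at least 10 cells. Cxcl12 was led by cholangiocyte-like cells, its receptor gene Cxcr4 by neutrophil-like cells and its scavenger gene Ackr3 by vascular endothelial-like cells in both libraries. Xcl1 was led by NK-like and T-like cells and Xcr1 by cDC1-like cells. Cxcl2 and Cxcr2 shared the neutrophil-like class, where 52 of 93 PCB126 cells and 408 of 765 Control cells held a UMI of both after thinning. Cxcl16 was spread over endothelial and dendritic cells, and its receptor gene Cxcr6 over T-like and NK-like cells. Partners outside the 36 were often scarce: the CCR7 ligand genes Ccl19 and Ccl21a had 1 and 0 UMIs in PCB126 cells and 0 and 0 in Control cells. The CCR6 ligand gene Ccl20 had 1 UMI in PCB126 and 6 UMIs in Control cells, and the CX3CR1 ligand gene Cx3cl1 had 22 and 11 UMIs. The CCR9 ligand gene Ccl25 had 104 and 131 UMIs, at 17.1 CPM in PCB126 and 12.9 CPM in Control cholangiocyte-like cells. These values are RNA levels and do not show that a signal passed between cells.

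A list of 47 further chemokine ligands, receptors, signal regulators and processing enzymes, of which 45 were in the gene lists, had few genes past 2-fold, at shares that can be set beside those of all measured genes. In neutrophil-like cells 2 of 21 were higher, where 9.84% of all measured genes were, and in LSEC-like cells 1 of 13 was higher and 1 lower, where 7.46% and 4.00% were. There was 1 of 11 higher in intermediate cells (6.09% of all genes), 1 of 14 higher in vascular cells (2.42%) and 1 of 16 lower in cholangiocyte-like cells (1.79%). With 1 or 2 genes in each, nothing is read from these counts. The lower gene in cholangiocyte-like cells was Cxcl5, another CXCR2 ligand gene, with 1 UMI in PCB126 and 23 UMIs in Control cells (ratio 0.0319, 0.000774 to 0.196). In neutrophil-like cells the regulators of G-protein signalling Rgs2, at 762 and 306 CPM (ratio 2.49, 2.18 to 2.84), and Rgs1, at 61.2 and 27.1 CPM (ratio 2.25, 1.37 to 3.59), were higher. Rgs2 was lower in LSEC-like cells, at 22.3 and 64.1 CPM (ratio 0.347, 0.231 to 0.524). In cDC1-like cells 1 of 20 was higher and 1 lower (7.63% and 3.83% of all genes), and in B-like cells 1 of 12 each (9.17% and 11.1%).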

How the data were processed

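Per the labels' protocols, cells were captured in droplets with the 10x 3′ v3.1 kit for a target of 6000 cells. The deposited matrices hold raw UMI counts, with no normalization by the authors; the deposited gene and barcode lists hold other content, namely names in matrix order. Cell Ranger 6.0.0 wrote the matrices per the file headers; version 6.1.1 and, for later steps, Seurat 4.0.1 stand in the submitters' processing notes. No source used here gives the genome build or the annotation. The 36 members and all lists were chosen with earlier results of these data known.

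The PCB126 and Control matrices held 4307 and 8550 barcodes with 16269562 and 24134912 UMIs. A cell had at least 500 UMIs, at least 250 genes and at most 20% mitochondrial UMIs, which 1149 and 1886 barcodes met; 1460 and 6252 had under 250 genes, and 1698 and 412 failed the mitochondrial limit alone. Scrublet scores removed the 11 and 28 likeliest doublets, at 0.8% per 1000 cells, while its own threshold called 4 and 8. In all, 3 barcodes occurred in both libraries, none of them a cell in both.

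A cell's score for a type is its mean scaled log expression of that type's markers. A class needed a score of 0.15, 3 detected markers and a lead of 0.05 over the next type. UMIs were summed per class and library and divided by the class total. Intervals are exact (Poisson, Clopper-Pearson, conditional binomial), at 95%. Log2 ratios add 0.5 counts, and bounds against 0 use 3 counts per class. The ratio code was tested on simulated data. Members are named in each of the 7 compared classes where they had 20 UMIs. They are also named in their leading class, unless it held only 1 UMI. The leading class has the highest CPM among classes with at least 10 cells in that library. In other classes members are given in part, with a count. Alternatives changed the class rule, limits, doublets, totals, depth and cells left out, and subtracted the profile of barcodes under 250 genes, scaled per class and library by markers of other cell types. Python 3.11.15, scanpy 1.11.5, scipy 1.17.1, numpy 2.4.6 and pandas 2.3.3 were used.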

Additional observations from a re-analysis of the deposited data

Results flagged for a closer look

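Cxcl13, the CXCR5 ligand gene, was more abundant outside the analysed cells than in them. The Control barcodes with fewer than 250 genes held 166 Cxcl13 UMIs in 123 barcodes, 17.6 CPM (14.98 to 20.4), against 1.96 CPM in the Control cells. The same kind of barcode in the PCB126 library held 2 UMIs, 0.969 CPM. Control barcodes that failed the mitochondrial limit alone held 21 Cxcl13 UMIs in 11 barcodes, 29.6 CPM. These barcodes enter no comparison of the report.

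Cxcl9 was at least 2-fold higher in intermediate endothelial cells (ratio 2.07) and cDC1-like cells (ratio 2.18) and lower in neutrophil-like cells (ratio 0.110). Ccrl2 was higher in LSEC-like cells (ratio 2.42) and lower in cDC1-like cells (ratio 0.101). Neither difference between classes was tested, and 1 cell held most of the UMIs behind the Cxcl9 values and behind the cDC1-like value of Ccrl2.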

How the results depend on the processing

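Of 26 calls in the 5 classes with at least 50 cells, 20 reversed under no alternative and 12 stayed past 2-fold under all that were counted. For the added classes the numbers were 10, 7 and 6. An alternative that left a member no UMI in either library was not counted. A call whose UMIs all lay in 1 cell, with 0 in the other library, could therefore not fail when that cell was left out. Ccl24 and Ccr2 in intermediate cells were counted under 9 and 8 alternatives, against 13 for Ackr3 there. Cxcl10 in B-like cells was counted under 12, against 14 for Ccr6 there. These calls, each from 1 cell, are among the 12 and the 6. Counts of members past 2-fold were 6 in LSEC-like, 2 in cholangiocyte-like, 7 in intermediate, 4 in vascular and 7 in neutrophil-like cells. Thinning to 1000 UMIs gave 2, 0, 0 and 1 in the first 4, through fewer UMIs. Intermediate cells had 0 with clusters and 2 with a mitochondrial limit of 10%, at least 10 UMIs gave 4 in cholangiocyte-like cells, and at least 50 UMIs gave 1 there, 1 in intermediate and 2 in vascular cells. Neutrophil-like cells had 3 without the leading cell and 4 with a Retnlg UMI.

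Reversed log2 ratios were, for Cxcl9 in neutrophil-like cells, 0.19 (clusters), 2.19 (stricter gate), 0.78 (mitochondrial limit of 50%), 0.64 (leading cell left out) and 0.67 (Retnlg cells); for Cxcl9 in intermediate cells, -2.95 and -0.96 (limits of 10% and 50%), -0.40 (mean per cell) and -1.26 (leading cell left out). With clusters, intermediate Cxcl10 gave 0.14 and Ackr3 -0.31. The 10% limit gave -1.33 for Ccl9 in neutrophil-like and -2.81 for Ccr7 in B-like cells. Thinning gave 0.97 for Ccl2 in neutrophil-like and -0.29 for Ccr9 in cDC1-like cells, and Ccrl2 there gave 1.48 without the leading cell. Where no cause is named, it was not tested. Classes from 22 clusters matched the marker classes for 2489 of the 2775 cells that had a class under both rules, or 89.7%. All cells numbered 2996, and cluster 7, with 118 PCB126 and 24 Control cells, was given no class. The Retnlg split, the added classes and an endothelial division at 0.3 were chosen after seeing the data. No paired analysis was possible because each group has 1 library, and for the same reason no library could be left out.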
